A study of Homo sapiens with 4 samples.

Results

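The genes that build the N-linked glycan and supply its sugars were compared between A549 cells given an FCN3-expressing virus and A549 cells given an empty virus (EV). The 46 genes were chosen by their known role, with earlier results of these data known, and were found by symbol in tables of 25192 genes. Comparisons of the 46 with all tested genes are therefore not independent of the data. A549 is a cell line derived from a human lung adenocarcinoma, and FCN3 (Ficolin 3) is a secreted lectin of the complement system. The EV cells received the retroviral vector pLZRS-IRES-GFP, which expresses GFP alone, and the FCN3 cells received the same vector with full-length FCN3 carrying a V5 tag. All 4 libraries, 2 per group, were of RNA taken 48 h after infection, and no sort for GFP-positive cells is described, so each library may hold cells that took up no virus. Nothing says whether the 2 libraries of a group came from separate cultures. The p-values rest on the spread between these libraries, which may be technical. The fitted tests estimate that spread partly by pooling over genes.

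N-linked glycosylation begins in the membrane of the endoplasmic reticulum (ER). A lipid, dolichol phosphate, receives N-acetylglucosamine and mannose on the cytosolic face, is flipped, and receives further mannose and then glucose on the lumenal face. The oligosaccharyltransferase (OST) moves the finished glycan to asparagines of proteins entering the ER, glucosidases trim it, and the UGGT enzymes put a glucose back on glycoproteins that are not yet folded, which returns them to the lectin chaperones. The sugars come as UDP-N-acetylglucosamine (UDP-GlcNAc) from the hexosamine pathway, as GDP-mannose, and as dolichol-linked mannose and glucose. The study asked what FCN3 expression does to the transcriptome of these cells, and its title names ER stress.

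The libraries held between 16353554 and 35733734.8 expected counts (RSEM's estimated reads per gene, which need not be whole). FCN3 was at 0.0274 and 0 CPM (a gene's counts as a share of its library, here always normalized by TMM) in the EV libraries, below the level that 3 counts give there, and at 21297 and 22541 CPM in the FCN3-virus libraries, where it took 2.06% and 2.23% of all counts. HSPA5, the main ER chaperone, was higher by 3.19 on the log2 scale, the transcription factor XBP1 by 1.55 and DDIT3 (CHOP) by 4.35, with edgeR adjusted p = 0.000989, 0.00296 and 0.000403. ATF4 was higher by 0.61 (edgeR adjusted p = 0.0255). All 6 epithelial markers looked at (KRT8, KRT18, KRT7, KRT19, EPCAM and CDH1) were above 1 TPM (RSEM's share of transcripts, a scale corrected for transcript length) in every library. Summed levels of marker lists were 0 to 0.08 TPM for endothelial cells, 0.32 to 1.99 TPM for leukocytes and 2.8 to 8.26 TPM for fibroblasts, the last nearly all COL1A1 and higher in replicate 2 of both groups. PECAM1, CD3E and DCN were listed at 0 everywhere. Of 6 alveolar type II markers only ABCA3 was above 1 TPM in every library while SFTPA1 was listed at 0 and the other surfactant genes, which define that cell type, were at 0.09 TPM or less.

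Genes of several steps were higher with the FCN3 virus, most of all those of the hexosamine pathway and the OST, while the enzymes that extend the glycan were split. GFPT1, MAGT1, UAP1, ALG12, GMPPA, GMPPB, OSTC and PGM3 had the highest log2 fold changes, between 0.86 and 1.55, and DOLK and ALG6 the lowest. The test, edgeR's quasi-likelihood test with Benjamini-Hochberg adjustment over 14099 tested genes and a threshold of 0.01, was fitted on the groups alone and again with a term for the replicate number (the block), since the comparison is by replicate number. The labels do not say what a replicate number marks. Differences between replicate 1 and replicate 2 in the EV group went with those in the FCN3 group (r = 0.807 over 8310 genes and 0.64 over the 46 genes, across genes, which are not independent of each other). The fit with the block leaves 1 residual degree of freedom, so its standard errors (SE) and p-values lean on spread pooled over genes. There ALG9, with log2 ratios of -0.24 and 0.24 in replicates 1 and 2, had an SE of 0.095. UGGT2, with 0.18 and 0.23, had nearly the same SE, 0.088. A small adjusted p with the block is therefore not a measure of a gene's own spread alone. An exact permutation test of 2 libraries against 2 cannot go below p = 0.333.

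All 46 genes passed the filter on low counts. The lowest was ALG10, with 111.7 expected counts in 1 library, and the highest GANAB, with 22116. Without the block, 2 of the 46 were called higher (GFPT1 and UAP1), against 0.738% of all tested genes, and 0 were called lower, against 0.227%. A further 13 had an adjusted p between 0.01 and 0.05, all of them higher. At a threshold of 0.05 this made 15 higher and 0 lower, against 624 and 390 of all 14099 tested genes. An unadjusted p under 0.05 was found for 22, of which 2 were lower, and for 3542 of all tested genes. With the block, 23 of the 46 (50%) were called higher and 2 (4.35%) lower, DOLK and ALG6, where 19.1% of all tested genes were called higher and 17.1% lower. DESeq2, the tool of the study, called 15 (32.6%) higher and 0 lower without a block. Of the 13317 genes it adjusted, it called 4.43% higher and 457 lower. With 1 library left out at a time, the edgeR median log2 fold change of the 46 genes ran from 0.19 to 0.25. Over all tested genes it ran from 0.005 to 0.029. The group ranges were apart, with both FCN3-virus libraries above both EV libraries, for 25 of the 46 (54.3%), against 28% of all tested genes, and apart in the other direction for 7 (15.2%), against 26.5%. The median log2 fold change was 0.19 over the 46 genes, with a range of -0.44 to 1.55, and 0.02 over all tested genes. Of the 46, 39 had the same sign in both replicate numbers, which was not counted over all tested genes.

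**Figure D1:**
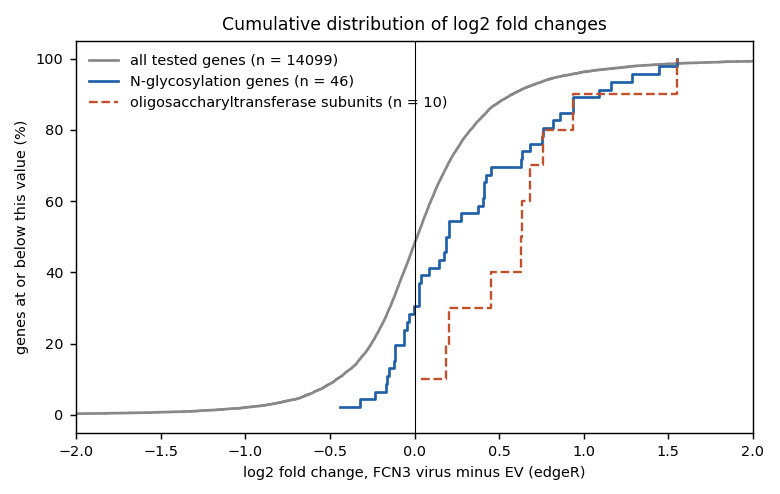
Cumulative share of genes (vertical axis, %) at or below each log2 fold change (horizontal axis, FCN3 virus minus EV) for all 14099 tested genes, the 46 N-glycosylation genes and the 10 OST subunits. The line of the 46 genes lies to the right of that of all genes over most of its range, with a median of 0.19, and the 10 OST subunits lie above 0, TUSC3 only just at 0.04 and below 0 on the TPM scale. Genes past the ends of the axis at -2 and 2 are counted but not drawn.

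The hexosamine pathway turns fructose 6-phosphate into UDP-GlcNAc in 4 steps, and all 4 genes were higher (median log2 fold change 1.07). GFPT1 (chr2:69546912-69614382, minus strand, GRCh37), the rate-limiting first enzyme, was at 109 and 116 CPM in the EV libraries and 311 and 300.0 CPM in the FCN3-virus libraries. It rose 2.72-fold (log2 fold change 1.45, SE 0.08, edgeR adjusted p = 0.00265, and 3.66e-29 with the block). UAP1 (chr1:162531512-162571030, plus strand), the enzyme that makes UDP-GlcNAc itself, stood at 33.5 and 33.8 CPM with EV and 82.8 and 81.2 CPM with the FCN3 virus. It rose 2.44-fold (log2 1.29, SE 0.09, edgeR adjusted p = 0.00325, and 2.27e-23 with the block). For both genes the libraries of a group lay close together and the groups far apart.

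PGM3 (chr6:83857043-83903655, minus strand), the phosphoglucomutase of the third step, was at 42.2 and 41.5 CPM with EV against 75.1 and 76.9 CPM with the FCN3 virus. Its log2 fold change of 0.86 (SE 0.09) missed the threshold without the block (edgeR adjusted p = 0.0101) and passed it with the block (1.02e-16). GNPNAT1, the acetyltransferase of the second step, was at 115 and 87.8 CPM against 152 and 118 CPM, a log2 difference of 0.41. Its groups were apart by a small margin, since replicate 1 was above replicate 2 in both, and it rose with the block but not without it (edgeR adjusted p = 1.31e-08, and 0.239 without). Summed over the 4 genes, the level went from 131 and 119 TPM to 235 and 219 TPM.

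The close relatives GFPT2 and UAP1L1 passed neither test. GFPT2, which catalyses the same first step, was at 45.7 and 43.3 CPM with EV and 40.6 and 36.6 CPM with the FCN3 virus (log2 -0.21, edgeR adjusted p = 0.293, and 0.0125 with the block). The TPM ratio of GFPT1 to GFPT2 was 0.796 and 0.895 in the EV libraries and 2.56 and 2.75 in the FCN3-virus libraries, so the order of the pair in level changed. The ratio of UAP1 to UAP1L1 was 4.84 and 4.03 with EV and 14.1 and 11.2 with the FCN3 virus. Both ratios were separate between groups, at the smallest two-sided p that an exact permutation test of this design allows, 0.333.

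**Figure D2:**
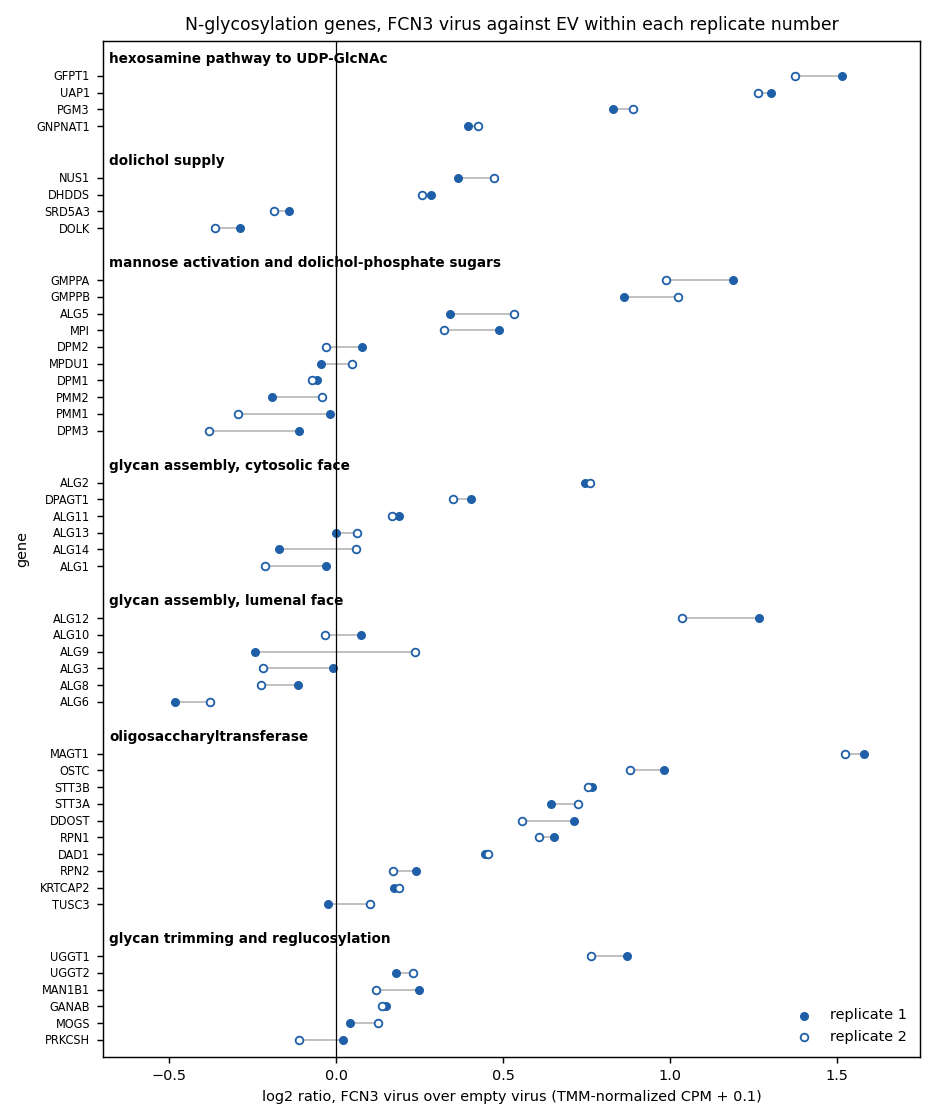
Log2 ratio of TMM-normalized CPM (with 0.1 added), FCN3 virus over EV, within replicate 1 (filled) and within replicate 2 (open) for each of the 46 genes by step of the pathway. The hexosamine genes and 9 of the 10 OST subunits lie above 0 in both replicate numbers, and ALG6 and DOLK lie below 0 in both.

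The promoters of the hexosamine genes are shown because all 4 hold the same short sequence. RefSeq promoter windows of 300 bases (250 before to 50 after the annotated start, GRCh38.p14) were matched for 41 of the 46 genes. No entry was matched for ALG10, MOGS, RPN1, STT3B and TUSC3. Both strands were searched for elements that are known from ER stress: the ERSE (CCAAT and CCACG with 9 bases between them), the ERSE-II (ATTGG and CCACG with 1 base between them), the UPRE core TGACGTGG and the CARE of ATF4 targets (TGATG and AA with 1 base between them). The inner part of the UPRE core, GACGTG, was added after the others had been counted, and each UPRE core also counts as a match to it. Capitals mark GACGTG, or CACGTC where it lies on the other strand, in the windows of GFPT1 (chr2:69387178-69387477, minus strand), GNPNAT1 (chr14:52791558-52791857, minus strand), PGM3 (chr6:83193216-83193515, minus strand) and UAP1 (chr1:162561281-162561580, plus strand), each written 5′ to 3′ along its gene.
GFPT1: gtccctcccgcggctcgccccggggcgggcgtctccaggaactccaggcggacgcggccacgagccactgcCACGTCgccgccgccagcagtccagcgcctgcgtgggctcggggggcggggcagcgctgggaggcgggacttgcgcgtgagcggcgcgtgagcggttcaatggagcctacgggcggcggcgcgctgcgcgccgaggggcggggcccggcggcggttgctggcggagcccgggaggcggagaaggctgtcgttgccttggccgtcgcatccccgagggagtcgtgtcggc
GNPNAT1: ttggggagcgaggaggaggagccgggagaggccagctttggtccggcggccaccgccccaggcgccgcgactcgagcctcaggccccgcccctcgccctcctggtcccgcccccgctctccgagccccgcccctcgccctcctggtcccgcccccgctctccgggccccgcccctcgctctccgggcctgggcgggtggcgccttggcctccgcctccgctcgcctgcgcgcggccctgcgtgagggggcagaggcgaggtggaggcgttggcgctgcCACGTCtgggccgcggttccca
PGM3: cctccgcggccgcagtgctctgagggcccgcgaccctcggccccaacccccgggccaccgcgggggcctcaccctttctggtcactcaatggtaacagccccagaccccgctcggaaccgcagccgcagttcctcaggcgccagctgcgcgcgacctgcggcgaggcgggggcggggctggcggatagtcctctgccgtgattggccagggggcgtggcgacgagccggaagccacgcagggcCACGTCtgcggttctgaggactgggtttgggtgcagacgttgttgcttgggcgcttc
UAP1: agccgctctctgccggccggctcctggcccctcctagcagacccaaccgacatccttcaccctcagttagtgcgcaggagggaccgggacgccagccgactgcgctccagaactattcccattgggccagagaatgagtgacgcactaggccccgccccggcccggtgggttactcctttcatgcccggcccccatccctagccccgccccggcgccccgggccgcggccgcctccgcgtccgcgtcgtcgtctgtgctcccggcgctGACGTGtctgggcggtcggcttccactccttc

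The matches began at -179 in GFPT1, 29 in GNPNAT1, -7 in PGM3 and 19 in UAP1, counted from the start site. GACGTG was found in 10 of the 41 matched promoters (24.4%) and in 2153 of all 27305 promoters (7.89%). The other 6 genes with it were DHDDS, ALG14, DPM3, UGGT2, DAD1 and PMM2, of which ALG14, DPM3 and PMM2 had log2 fold changes of -0.06, -0.23 and -0.12. It was present in 6 of the 21 matched genes called higher with the block (28.6%) and in 4 of the other 20 (20%). The complete UPRE core was in 1 matched promoter, that of DHDDS at -7, and in 217 of all promoters (0.795%). The ERSE-II and the CARE were in 0 of the 41, against 0.0549% and 3.67% of all promoters. A match is a description of these letters in this window, not of binding.

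**Figure D3:**
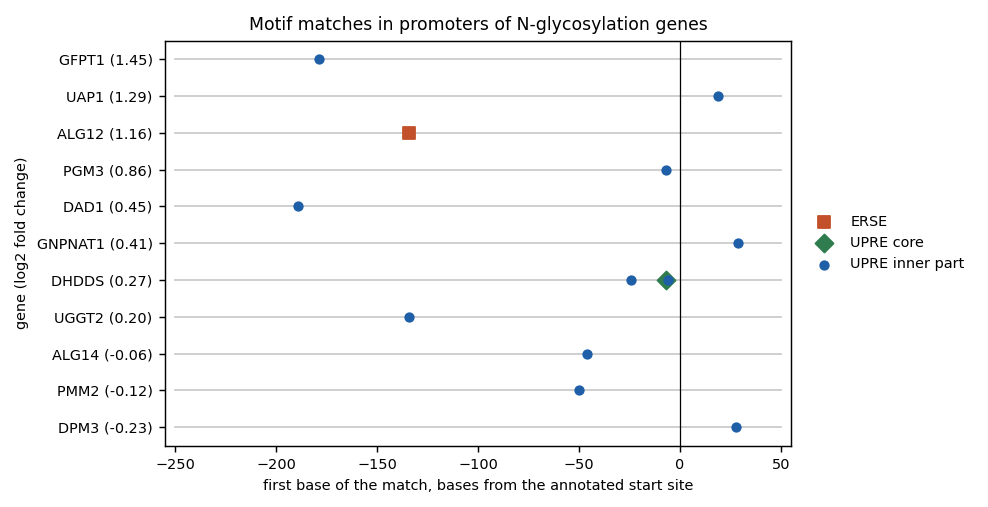
Position of each motif match (horizontal axis, bases from the annotated start site) in the promoter windows of the 11 N-glycosylation genes with a match, ordered by log2 fold change (in brackets). The matches to GACGTG, the inner part of the UPRE core, lie between -189 in DAD1 and 29 in GNPNAT1 and are found in genes with high and with negative fold changes, and the only ERSE is that of ALG12 at -134.

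The 4 genes of dolichol supply went both ways. With the block 2 rose and 1 fell, where 19.1% and 17.1% of all tested genes did, and 0 were called without it. With so few genes this is not a result about the step. NUS1 and DHDDS, the subunits of the enzyme that makes the long polyprenyl chain, were higher in both FCN3-virus libraries. NUS1 was at 86.1 and 67.6 CPM with EV and 111 and 93.9 CPM with the FCN3 virus (log2 0.41, SE 0.15, edgeR adjusted p = 0.172, and 3.37e-08 with the block). DHDDS was at 25.8 and 29.2 CPM against 31.4 and 34.8 CPM (log2 0.27, SE 0.12, edgeR adjusted p = 0.239, and 0.0028 with the block). In both genes the lower FCN3-virus library was above the higher EV library, by a small margin. DOLK (chr9:131707809-131709882, minus strand), the kinase that makes dolichol phosphate, was at 38.9 and 37.2 CPM with EV and at 31.8 and 28.9 CPM with the FCN3 virus, and fell only in the fit with the block (log2 -0.32, SE 0.11, edgeR adjusted p = 0.137, and 0.000255 with the block). SRD5A3, a reductase of dolichol synthesis, was at 10.3 and 9.8 CPM against 9.38 and 8.6 CPM and passed neither test (log2 -0.16, SE 0.15, edgeR adjusted p = 0.557, and 0.278 with the block). In DOLK and SRD5A3 both FCN3-virus libraries were below both EV libraries.

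Among the 10 genes that activate mannose and load dolichol, the GDP-mannose pyrophosphorylase stood apart. GMPPA (chr2:220363587-220378620, plus strand), its regulatory subunit, was at 26.1 and 32 CPM with EV and 59.7 and 63.5 CPM with the FCN3 virus (log2 1.09, SE 0.13, edgeR adjusted p = 0.0138, and 3.68e-19 with the block). GMPPB (chr3:49754277-49761406, minus strand), the catalytic subunit, was at 19 and 16.8 CPM against 34.6 and 34.4 CPM (log2 0.94, SE 0.12, edgeR adjusted p = 0.0153, and 4.54e-14 with the block). The groups of both genes were far apart, and both were called by DESeq2 without a block and by edgeR with it. The TPM ratio of GMPPA to GMPPB was 1.34 and 1.85 with EV and 1.63 and 1.76 with the FCN3 virus, so the groups overlapped (exact permutation p = 1, two-sided). GMPPB shares 2841 bases of protein-coding exons (GENCODE, GRCh37) with AMIGO3 on the same strand, so its counts are uncertain. AMIGO3 itself was at 3.79 and 4.24 CPM against 5.6 and 6.08 CPM.

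ALG5, which makes dolichol-phosphate glucose, was at 24.1 and 19.8 CPM with EV and 30.5 and 28.7 CPM with the FCN3 virus (log2 0.42, SE 0.13, edgeR adjusted p = 0.131, and 2.26e-05 with the block). MPI, which forms mannose 6-phosphate, had a log2 fold change of 0.41 and also rose with the block (edgeR adjusted p = 1.03e-05, and 0.0884 without), though 2228 of its exonic bases lie opposite those of FAM219B. The next step and the dolichol-phosphate mannose synthase passed neither test. The phosphomannomutase PMM1 was at 16 and 18.9 CPM with EV against 15.8 and 15.4 CPM (log2 -0.15, SE 0.14, edgeR adjusted p = 0.57), and PMM2 at 124 and 111 CPM against 108 and 107 CPM (log2 -0.12, SE 0.09, edgeR adjusted p = 0.466). DPM1, the catalytic subunit of the synthase, was at 44.2 and 40.7 CPM against 42.5 and 38.8 CPM (log2 -0.06, SE 0.11, edgeR adjusted p = 0.753). DPM3, which anchors it, was at 8.07 and 9.14 CPM against 7.46 and 6.99 CPM (log2 -0.23, SE 0.17, edgeR adjusted p = 0.444). The regulatory subunit DPM2 had a log2 fold change of 0.02. For PMM1, PMM2 and DPM3 both FCN3-virus libraries were below both EV libraries, and for DPM1 the groups overlapped. MPDU1, needed for the use of dolichol-phosphate mannose, was at 87.8 and 82.3 CPM against 85.1 and 85 CPM (log2 -0.00, SE 0.08, edgeR adjusted p = 0.998).

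On the cytosolic face, 2 of 6 genes were called higher with the block, which with so few genes is near the 19.1% of all tested genes. ALG2 (chr9:101978707-101984224, minus strand), the mannosyltransferase that adds the second and the third mannose, was at 42.9 and 40.4 CPM with EV and 71.9 and 68.4 CPM with the FCN3 virus (log2 0.75, SE 0.09, edgeR adjusted p = 0.0151, and 1.55e-14 with the block). DPAGT1, which starts the glycan and is the target of tunicamycin, was at 35.2 and 36.3 CPM against 46.6 and 46.2 CPM (log2 0.38, SE 0.09, edgeR adjusted p = 0.0733, and 9.95e-06 with the block). In both genes the groups were well apart, and DPAGT1 has 752 exonic bases opposite those of C2CD2L. ALG11, which adds the last mannoses on this face, was at 9.63 and 8.54 CPM against 11 and 9.6 CPM, with overlapping groups (log2 0.18, SE 0.16, edgeR adjusted p = 0.557), and shares 5529 exonic bases with UTP14C on its strand. ALG13 and ALG14 together add the second GlcNAc, and neither passed. ALG13 had a log2 fold change of 0.03, and ALG14 was at 9.88 and 9.74 CPM against 8.76 and 10.2 CPM (log2 -0.06, SE 0.16, edgeR adjusted p = 0.845). ALG1, which adds the first mannose, was at 44.1 and 40.1 CPM against 43.2 and 34.6 CPM (log2 -0.11, SE 0.14, edgeR adjusted p = 0.665).

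On the lumenal face, ALG12 was the exception in a group whose median log2 fold change was -0.08. ALG12 (chr22:50293877-50312086, minus strand), the mannosyltransferase that adds the eighth mannose, was at 16.9 and 19.4 CPM with EV and 40.8 and 39.9 CPM with the FCN3 virus (log2 1.16, SE 0.12, edgeR adjusted p = 0.0108, and 8.97e-18 with the block). ALG6 (chr1:63833246-63904224, plus strand), the glucosyltransferase that adds the first glucose, was at 13.8 and 12.3 CPM with EV and 9.85 and 9.45 CPM with the FCN3 virus (log2 -0.44, SE 0.15, edgeR adjusted p = 0.141, and 0.000893 with the block). It fell in the fit with the block, while ALG12 rose in it, and the groups of both genes were apart. ALG8, the second glucosyltransferase, was at 69.1 and 64.6 CPM against 63.9 and 55.3 CPM, with both FCN3-virus values below both EV values (log2 -0.17, SE 0.11, edgeR adjusted p = 0.406, and 0.0245 with the block). ALG10, the third glucosyltransferase, had a log2 fold change of 0.03, and 0.01 when its counts were summed with those of its near-identical copy ALG10B. The mannosyltransferase ALG3 was at 42.8 and 52.9 CPM against 42.5 and 45.3 CPM (log2 -0.12, SE 0.13, edgeR adjusted p = 0.633), and ALG9 at 22.8 and 17.6 CPM against 19.3 and 20.7 CPM (log2 -0.03, SE 0.16, edgeR adjusted p = 0.927). ALG9 had the widest gap between its replicate numbers, below 0 in replicate 1 and above 0 in replicate 2.

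ALG12 was also the only matched gene with a complete ERSE, which was found in 22 of all 27305 promoters (0.0806%). Its window (chr22:49918389-49918688, minus strand, GRCh38.p14) is shown with the ERSE, which begins at -134, in capitals. The window of CRELD2 (chr22:49918384-49918683, plus strand) covers nearly the same bases. The element thus lies between the RefSeq start sites of 2 genes read in opposite directions. CRELD2, an ER stress gene, was at 25.1 and 25.3 CPM with EV and at 335 and 310.3 CPM with the FCN3 virus (log2 3.68, edgeR adjusted p = 0.000403). The 2 genes overlap by 272 bases in GENCODE (GRCh37) but share 0 bases of protein-coding exons. The window of MAGT1, which had the highest log2 fold change of the 46, is printed after it (chrX:77895386-77895685, minus strand) because no element searched was found there.
ALG12: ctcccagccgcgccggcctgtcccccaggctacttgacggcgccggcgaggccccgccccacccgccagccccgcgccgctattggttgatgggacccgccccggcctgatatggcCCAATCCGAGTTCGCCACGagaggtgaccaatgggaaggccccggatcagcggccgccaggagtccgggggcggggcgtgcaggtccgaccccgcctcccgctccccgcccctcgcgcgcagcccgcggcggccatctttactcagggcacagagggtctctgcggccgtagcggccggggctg
MAGT1: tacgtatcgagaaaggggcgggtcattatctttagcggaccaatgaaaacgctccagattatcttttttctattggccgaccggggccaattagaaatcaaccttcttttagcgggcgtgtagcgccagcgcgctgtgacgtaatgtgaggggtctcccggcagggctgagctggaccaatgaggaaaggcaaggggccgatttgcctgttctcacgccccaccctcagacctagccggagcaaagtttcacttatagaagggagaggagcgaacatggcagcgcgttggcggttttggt

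**Figure D4:**
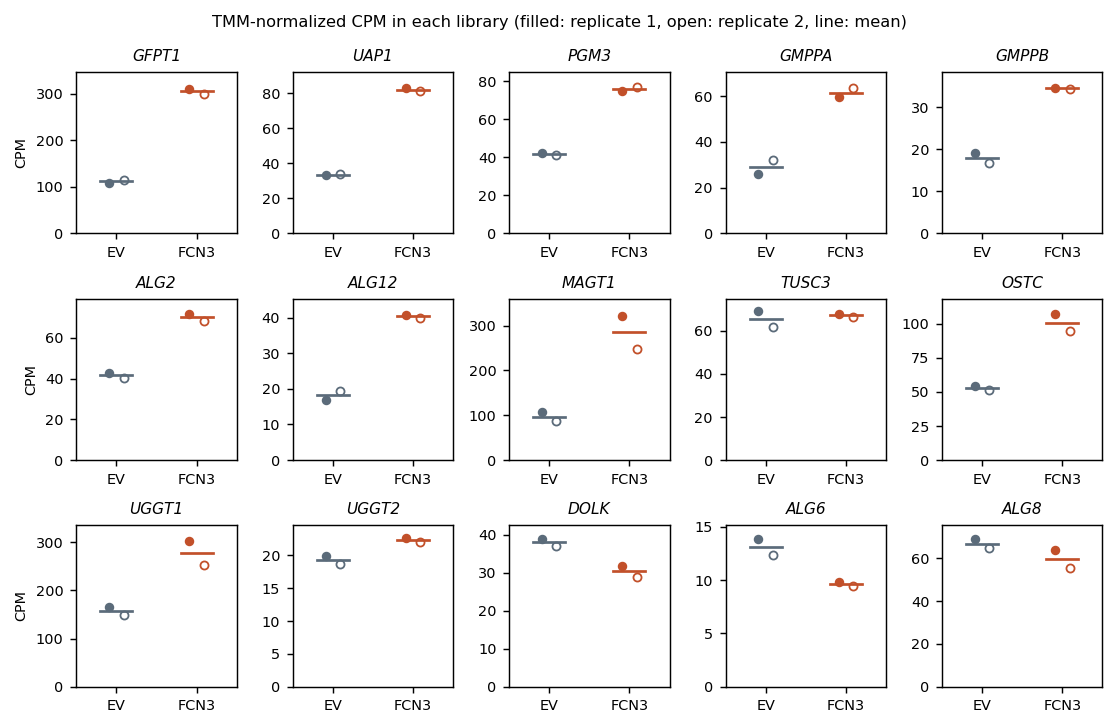
TMM-normalized CPM (vertical axes, from 0) of 15 N-glycosylation genes in the EV and the FCN3-virus libraries, with replicate 1 filled, replicate 2 open and a line at the mean of 2. The groups are apart in every panel but that of TUSC3, with lower values for the FCN3 virus in DOLK, ALG6 and ALG8.

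Of the 10 OST genes, 0 were called without the block at the threshold of 0.01, where 0.738% of all tested genes were called higher. With the block 8 rose (80%, against 19.1% of all tested genes). By DESeq2 7 rose (70%, against 4.43% of the genes it adjusted). Without the block, 8 had an unadjusted p under 0.05, as did 3542 of all 14099 tested genes in either direction. The median log2 fold change was 0.63, and the summed level of the 10 went from 1694 and 1646 TPM with EV to 2303 and 2204 TPM with the FCN3 virus. MAGT1 (chrX:77081244-77154768, minus strand), an oxidoreductase subunit of the STT3B form of the complex, was at 108 and 86.4 CPM with EV and 322 and 249 CPM with the FCN3 virus. It was 2.94-fold higher (log2 1.55, SE 0.17, edgeR adjusted p = 0.012, and 1.38e-30 with the block), 196th of the 14099 tested genes by log2 fold change. MAGT1 thus missed the threshold of 0.01 without the block. Fits with 1 library left out cannot settle this, since 1 group then has no spread of its own. Replicate 1 was above replicate 2 in both groups, and the log2 ratio was 1.58 within replicate 1 and 1.52 within replicate 2. TUSC3, the other oxidoreductase that can take the same place, was at 69.1 and 61.9 CPM against 68 and 66.5 CPM (log2 0.04, edgeR adjusted p = 0.859, and a log2 difference of -0.06 in TPM). The TPM ratio of MAGT1 to TUSC3 was 1.48 and 1.33 with EV and 4.50 and 3.56 with the FCN3 virus, separate between groups at the smallest p of an exact permutation test here, 0.333 (two-sided).

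OSTC (chr4:109571741-109588976, plus strand), a subunit of the STT3A form, was at 54.1 and 51.3 CPM with EV and 107 and 94.4 CPM with the FCN3 virus (log2 0.93, SE 0.10, edgeR adjusted p = 0.012, and 5.88e-19 with the block). The catalytic subunit STT3B (chr3:31574130-31679108, plus strand), which also glycosylates sites after translation, was at 148 and 124 CPM against 252 and 209.6 CPM (log2 0.76, SE 0.13, edgeR adjusted p = 0.0352, and 5.66e-18 with the block). STT3A (chr11:125461607-125495110, plus strand), the catalytic subunit that acts during translocation, was at 124 and 119 CPM against 194 and 198 CPM (log2 0.68). The TPM ratio of STT3A to STT3B was 0.737 and 0.843 with EV and 0.678 and 0.827 with the FCN3 virus, with overlapping groups (exact permutation p = 0.667, two-sided). Of the shared subunits, DDOST, RPN1 and DAD1 had log2 fold changes of 0.64, 0.63 and 0.45, with edgeR adjusted p = 0.0202, 0.0224 and 0.0319 without the block, and rose with it. RPN2, at 328 and 325 CPM against 387 and 365 CPM, had a log2 fold change of 0.21 and rose with the block (edgeR adjusted p = 0.0005). KRTCAP2, of the STT3A form, had 0.18 and was not called (0.0179 with the block). By level per transcript length, DAD1 was the highest subunit, at 394 and 396 TPM with EV, and TUSC3 the lowest, at 34.6 and 30.7 TPM.

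**Figure D5:**
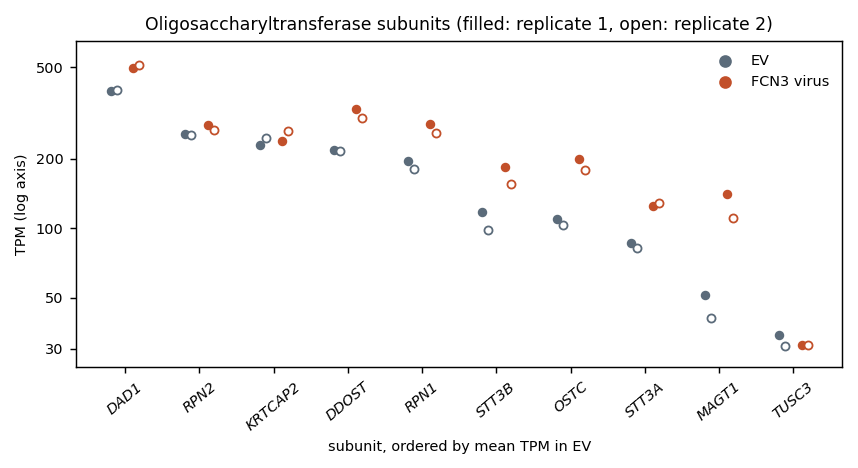
TPM (vertical log axis) of the 10 OST subunits in the 2 EV and the 2 FCN3-virus libraries (filled, replicate 1; open, replicate 2), ordered by mean TPM with EV. MAGT1 goes from 51.2 and 40.7 TPM to 141 and 111 TPM while TUSC3 stays between 30.7 and 34.6 TPM.

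Of the genes that trim the glycan, UGGT1 stood apart. UGGT1 (chr2:128848774-128953251, plus strand), the folding sensor, was at 166 and 149 CPM with EV and 303 and 253 CPM with the FCN3 virus (log2 0.82, SE 0.12, edgeR adjusted p = 0.022, and 2.55e-19 with the block). Its relative UGGT2 was at 19.9 and 18.8 CPM against 22.6 and 22 CPM, apart by a small margin (log2 0.20, SE 0.11, edgeR adjusted p = 0.343, and 0.0536 with the block). The TPM ratio of UGGT1 to UGGT2 was 3.70 and 3.53 with EV and 5.99 and 5.13 with the FCN3 virus, at the smallest p of an exact permutation test here, 0.333 (two-sided). MAN1B1, the mannosidase that marks glycoproteins for disposal, was at 72.6 and 73.7 CPM against 86.3 and 80 CPM and rose in the fit with the block (log2 0.19, SE 0.09, edgeR adjusted p = 0.258, and 0.00837 with the block). The glucosidase genes were not called. MOGS, glucosidase I, had a log2 fold change of 0.09, and GANAB, the catalytic subunit of glucosidase II, 0.14 (edgeR adjusted p = 0.0126 with the block). PRKCSH, its other subunit, was at 208 and 218 CPM against 210.3 and 201 CPM (log2 -0.05, SE 0.08, edgeR adjusted p = 0.766). Because each library is a mixture of all its cells, a change per cell and a change in the share of cells that respond cannot be told apart for any of these genes.

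Of 74 further genes of neighbouring pathways, 71 were tested, with log2 fold changes around a median of 0.06. In the fit on the groups alone, 3 (4.23%) were called higher and 0 lower, against 0.738% and 0.227% of all tested genes. In the fit with the block 20 (28.2%) rose and 5 (7.04%) fell, against 19.1% and 17.1%. HMGCS1, an early enzyme of the mevalonate pathway, which leads to dolichol and cholesterol, was at 207 and 239 CPM with EV and 511 and 509 CPM with the FCN3 virus (log2 1.20, SE 0.10, edgeR adjusted p = 0.00604). In that pathway 6 of 7 genes rose with the block, against 19.1% of all tested genes, and only HMGCS1 was called without it. Their median log2 fold change was 0.57. MVD, which decarboxylates mevalonate diphosphate, was at 22.4 and 28.5 CPM against 51.9 and 51.6 CPM (log2 1.03, SE 0.14, edgeR adjusted p = 0.0184). IDI1, the isomerase of the next step, was at 54.8 and 62.1 CPM against 115 and 109 CPM (log2 0.94, SE 0.10, edgeR adjusted p = 0.012). SLC35B1, a nucleotide transporter of the ER membrane, was at 55.2 and 55.6 CPM against 126 and 122 CPM (log2 1.16, SE 0.08, edgeR adjusted p = 0.00353). NANS, the sialic acid synthase, was at 45.3 and 45 CPM against 97 and 99.7 CPM (log2 1.12, SE 0.08, edgeR adjusted p = 0.00441). For these genes too the groups were far apart. HK2, a hexokinase, had a log2 fold change of 1.05 (SE 0.33) but with a wide spread between replicates, at 9.3 and 5.08 CPM against 18.4 and 12.3 CPM (edgeR adjusted p = 0.127, and 2.8e-11 with the block).

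The counts of the other lists are read against the 19.1% of all tested genes called higher and the 17.1% called lower with the block, and none is a result about its list. By list, 6 of 20 other sugar nucleotide genes rose with the block and 2 fell, and 3 of 8 nucleotide sugar transporters and 2 of 8 other ER N-glycosylation genes rose. Of 18 tested genes of Golgi N-glycan processing 3 rose and 1 fell, with a median of -0.00, and of 10 other users of dolichol-phosphate mannose, which build GPI anchors and O-mannose or C-mannose links, 0 rose and 2 fell (PIGM and PIGX, with log2 fold changes of -0.30 and -0.34 and edgeR adjusted p = 0.00467 and 0.0013 with the block).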

How the data were processed

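Stranded mRNA libraries of A549 cells were sequenced by the authors with paired-end reads, which were trimmed, aligned to hg19 with STAR 2.6.1d and quantified with RSEM. For each gene the authors deposited an expected count, RSEM's unnormalized and not always whole estimate of its reads, with its length and effective length. The deposited TPM and FPKM are RSEM's values scaled for length and depth, and only the TPM was used. Which annotation was counted, and whether reads were counted by strand, is not given in the sources used here. Genes that share exons with others are therefore uncertain. Besides those named above, ALG9, SRD5A3 and KRTCAP2 share 1954, 815 and 596 exonic bases with other annotated genes on the same strand. Exons on the opposite strand also overlap those of ALG1 (983 bases), GMPPB (669) and PGM3 (610), among others.

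Expected counts were rounded and tested in R 4.3.3 with edgeR 4.0.16 (TMM, filterByExpr, glmQLFit and glmQLFTest without the legacy method, Benjamini-Hochberg over 14099 genes, FDR 0.01), FCN3 virus against EV. SE was obtained from the size of the log2 fold change and the F statistic. The scripts were tested on simulated data. The floor of 3 counts was 0.0823 to 0.179 CPM, which covers counting error only. The 46 genes, the neighbouring lists and the elements searched were chosen with earlier results of these data known.

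Full values were given for the 3 largest absolute log2 fold changes of each step, for genes called without the block and for those below 0, and of the neighbouring genes for those called and the 6 largest at an average log2 CPM of at least 1. Settings tried were the replicate block, DESeq2 1.42.0 with and without it, RLE factors, normalization without FCN3, no filter, the legacy method, an offset from effective lengths, limma 3.58.1 on log2(TPM + 1) and log2(TPM + 0.1), FDR 0.05 and each library left out in turn. The block with the length offset, and counts summed over near-identical copies, were added after seeing the data. Promoters came from RefSeq (GRCh38.p14) and locations from GENCODE (GRCh37).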

Additional observations from a re-analysis of the deposited data

How the results depend on the processing

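The number of genes called higher, 2 in edgeR without a block (104 of 14099 over all genes), was 23 with the replicate block (2690 of 14099). With the replicate block and an effective length offset it was 22 (2581 of 14099). It was 15 by DESeq2 (590 of 13317 over all genes) and 17 by DESeq2 with the replicate block (1107 of 13671). It was 15 at an FDR of 0.05 (624 of 14099) and 4 with FCN3 left out before normalization (116 of 14027). It was 3 to 5 when each library was left out, with MAGT1 added each time and GMPPA and ALG12 added without EV replicate 2. The number called lower, 0 otherwise, was 2 in both edgeR fits with the block (2413 and, with the length offset, 2264 of 14099 over all genes). It was 0 by DESeq2 with the block (1105 of 13671). GFPT1 and UAP1 were called in every setting run with all 4 libraries. The labels do not say that replicate numbers mark a shared culture or day, so a call lost or gained with the block does not measure a weaker or stronger effect.

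The median log2 fold change of 0.19 was 0.0914 on log2(TPM + 1) and 0.102 on log2(TPM + 0.1). The median of all tested genes moved as well there, from 0.02 to -0.07 and -0.09, and 27 instead of 32 of the genes were above 0. Only genes near 0 changed direction, and the cause was not tested. In TPM with 1 and with 0.1 added, DPM2 was at -0.0780 and -0.0796, ALG13 at -0.141 and -0.148, ALG10 at -0.0663 and -0.0801, TUSC3 at -0.0614 and -0.0631, and MOGS at -0.00222 and -0.00238. With the length offset ALG13 was at -0.0476, and at -0.0470 with the block as well, where MPDU1 was at 5.2e-05. MPDU1 was at 0.00355 with FCN3 left out and 0.00147 without a filter. When each library was left out, DPM1 ran from -0.135 to 0.00788, DPM2 from -0.0722 to 0.119, MPDU1 from -0.0526 to 0.0579, ALG13 from -0.0223 to 0.0879, ALG14 from -0.165 to 0.0483, ALG1 from -0.285 to 0.0331, ALG3 from -0.259 to 0.0300, ALG9 from -0.201 to 0.193, ALG10 from -0.269 to 0.283, TUSC3 from -0.0454 to 0.128, and MOGS from -0.0771 to 0.236. These fits assume that the lone library of a group varies like the other group. The SE of the 46 log2 fold changes lay between 0.08 and 0.24. Differences well under that size were not detectable with 2 libraries a group, and some much larger ones also missed the threshold of 0.01 without the block. ALG12 (log2 1.16, SE 0.12) and MAGT1 (log2 1.55, SE 0.17) had edgeR adjusted p = 0.0108 and 0.012. A gene that was not called is thus not shown to be unchanged.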

Other observations

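The mean transcript length that RSEM estimated for ALG13, a subunit of the enzyme that adds the second GlcNAc, was 3368 and 3389 bases in the EV libraries and 3519 and 3590 bases in the FCN3-virus libraries, while its CPM was level. Summed with its near-identical copies ALG1L and ALG1L2, ALG1 had a log2 fold change of -0.12 (edgeR adjusted p = 0.659, and 0.177 with the block).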
